A study of Mus musculus with 2 samples.

Results

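The alcohol dehydrogenase family around *Adh4* was followed in liver RNA of c-Myc-injected mice, with and without TSA. The 6 genes are *Adh1*, *Adh4*, *Adh5*, *Adh6a*, *Adh7* and *Adhfe1*, taken by gene symbol from the 21878 symbols of the tables. All 6 had a row in each library, and 5 were detected in each, since *Adh6a* had no count. ADH4 is the enzyme that the title of the series names. Both libraries came from the liver of FVB/N mice given c-Myc by hydrodynamic injection, a rapid injection into the tail vein that carries DNA into hepatocytes. Liver of the first group had no treatment and liver of the second had TSA. The labels do not spell out TSA and give no dose, duration, age or sex. They also do not say whether the tissue was tumour, surrounding liver or a mix, or whether animals were pooled. Each group has 1 library, so no difference has a replicate check and no p-value is given.

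Alcohol dehydrogenases pass electrons from alcohols to NAD and so turn alcohols into aldehydes, or run in reverse. The zinc-dependent members sit side by side on mouse chromosome 3 and are sorted into classes by sequence and substrate. ADH1, the class I enzyme of hepatocytes, does most of the oxidation of ethanol and also takes retinol. ADH4, the class II enzyme, works at high ethanol levels and on retinol and hydroxylated fatty acids. ADH5, the class III enzyme, is found in nearly every cell, where it removes formaldehyde bound to glutathione and reduces S-nitrosoglutathione. ADH7, the class IV enzyme, belongs to stomach and other epithelia. *Adhfe1*, on chromosome 1, codes for an iron-dependent mitochondrial enzyme of another fold that oxidises hydroxybutyrate while reducing alpha-ketoglutarate.

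The coding stretches of the 5 zinc enzymes were compared for how alike they are. How well reads were told apart also depends on alignment and counting, whose settings the sources used do not give. In the GENCODE M21 transcripts the longest open reading frames run from 374 to 377 codons for the zinc enzymes and to 465 codons for *Adhfe1*. *Adh1* and *Adh7* were the most alike, with 68.9% of aligned positions, gaps included, identical, and *Adh4* shared 62.9% with *Adh1* and 62.9% with *Adh5*. *Adhfe1* shared between 44.2% and 46.0% with the others. No stretch of 50 bases was shared between members, and at most 0.291% of the 50-base stretches of a member occurred in a transcript of any other gene. The annotation places *Gm16559* over *Adh1*, *0610031O16Rik* over *Adh7* and *2610203C22Rik* over *Adhfe1* on the opposite strand. *Gm6161* overlaps *Adhfe1* on the same strand, where strand could not separate their reads. The sources used here do not say whether counting used strand, so reads of the opposite-strand pairs may not be told apart either.

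The promoters of *Adh1*, *Adh4* and *Adh5* are shown because these genes carried most of the family's RNA and sat at both ends of its range of differences. Sequences are the plus strand before the RefSeq start in build GRCm38.p6, 5′ to 3′, and capitals mark CG dinucleotides. The *Adh4* stretch stops at the earliest RefSeq start of the gene, and *Adh5* is given at its CG-rich start. The other RefSeq start of *Adh5* lies earlier, at base 138437200, so the *Adh5* bases printed come after it.
Adh1, chr3:138277335-138277584: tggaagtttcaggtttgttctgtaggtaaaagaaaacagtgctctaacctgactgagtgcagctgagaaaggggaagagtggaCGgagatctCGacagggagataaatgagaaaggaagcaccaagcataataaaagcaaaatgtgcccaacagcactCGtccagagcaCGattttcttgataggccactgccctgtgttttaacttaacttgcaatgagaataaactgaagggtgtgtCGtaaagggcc
Adh4, chr3:138415247-138415455: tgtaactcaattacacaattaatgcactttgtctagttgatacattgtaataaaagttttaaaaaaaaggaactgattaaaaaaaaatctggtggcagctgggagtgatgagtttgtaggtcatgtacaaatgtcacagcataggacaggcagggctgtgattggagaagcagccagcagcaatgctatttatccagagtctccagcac
Adh5, chr3:138442843-138443092: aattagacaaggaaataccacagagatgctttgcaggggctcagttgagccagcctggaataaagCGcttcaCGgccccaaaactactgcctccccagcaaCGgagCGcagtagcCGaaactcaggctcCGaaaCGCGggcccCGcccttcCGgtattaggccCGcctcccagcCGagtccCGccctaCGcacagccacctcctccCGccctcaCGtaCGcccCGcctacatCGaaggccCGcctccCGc

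The *Adh5* stretch held 21 CG pairs in 250 bases, more than 83.65% of 32851 promoter windows of that length. *Adh1* held 5 and *Adh4* held 1, which lies outside the bases printed. *Adh6a* and *Adh7* held 1 each, and the other *Adh5* start held 2. *Adhfe1* was not matched in the promoter table. Short motifs were searched on both strands over the full 250 bases before the listed start. GGGCGG, the core of a GC box, occurred 3 times in the *Adh5* window, each on the reverse strand, and 32.7% of all windows hold it. In the *Adh4* window TATTTA began 64 bases before the start (12.7% of all windows hold it), GCAAT 71 bases before it (23.1%), CCAAT on the reverse strand 90 bases before it (33.9%) and AGGTCA 133 and 11 bases before it (14.0%). The AGGTCA 11 bases before the listed *Adh4* start lies outside the bases printed, after the earliest RefSeq start of the gene. The last 4 letters of both CAAT-type motifs are the same. *Adh1* held only GCAAT of these, 38 bases before the start. *Adh6a* held TATAAA 31 bases before its start (12.4% of all windows), which overlaps a reverse-strand TATTTA, and *Adh7* held TATAAA on the reverse strand and CCAAT. None of the members' windows held CACGTG, which 6.02% of all windows hold. Such matches describe letters and show no binding.

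The untreated library held 17281523 counts and the TSA library 17088227. Hepatocyte marker genes were higher with TSA in 10 of 10 cases, and their summed level was 11463 CPM (counts per scaled library total, here after TMM scaling, which sets the libraries to a common level by assuming that most genes do not differ) without treatment and 179653 with TSA. Markers of endothelium were higher in 7 of 8 cases (summed CPM of 91.8 and 520), of macrophages in 5 of 8 with 2 lower (620 and 704), and of stellate cells in 5 of 8 with 1 lower (197 and 493). Of 6 cholangiocyte markers tested 3 were higher and 2 lower (78.8 and 76.6). Erythroid markers were higher in 5 of 5 tested (70.2 and 355) and lymphocyte markers in 3 of 5 (18.4 and 36.5). With total counts macrophage markers split into 3 higher and 3 lower, stellate into 4 and 2, and cholangiocyte into 2 and 3. Endothelial markers counted as higher dropped from 7 to 5 of 8, while hepatocyte, erythroid and lymphocyte numbers stayed the same. By the same rule, given below, TMM placed 26.0% of all genes tested as higher and 27.4% as lower. Total counts placed 16.0% as higher and 48.7% as lower. No marker of stratified epithelium, a tissue known for ADH7, had 20 counts, and their summed CPM was 0.302 and 0.0786. *Krt5*, *Krt13* and *Trp63* were at 0 in both libraries. *Cftr* of cholangiocytes and *Hba-a2* of erythroid cells were at 0 with TSA, and *Epb42* of erythroid cells without treatment. The part of these differences in tissue makeup in the results below was not tested. In bulk liver, fewer cells of a type and less RNA per cell cannot be told apart.

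The 5 detected members were higher with TSA under TMM scaling, and the most abundant member was *Adh5* without treatment and *Adh1* with TSA. The family summed to 157 FPKM (the deposited level, counts per length of gene model and library total, which can be compared between genes) without treatment and to 1918 FPKM with TSA. Counts of the family made up 0.0270% of the untreated library (4670 counts) and 0.271% of the TSA library (46259 counts). A call, higher or lower, needed TMM-scaled counts that differed by 2-fold or more, a 95% interval of their ratio without 1, and at least 20 summed counts. The intervals, given in parentheses, are exact and cover counting error only. By this rule 5 of the 5 members tested were higher and 0 lower, where 26.0% of all 13027 genes tested were higher and 27.4% lower. With total counts as the scaling 4 of the 5 were higher and 0 lower, against 16.0% and 48.7% of all genes. The median log2 ratio of the 5 members was 3.26, and that of all genes tested -0.11. TMM moved every log2 ratio up by 0.85 compared with total counts, which leaves the order of the members and their distances from each other untouched. With TMM most genes tested were called higher or lower, so its assumption that most genes do not differ is not met by these calls. Calls that change between the scalings, such as that of *Adh5*, depend on this choice.

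**Figure D1:**
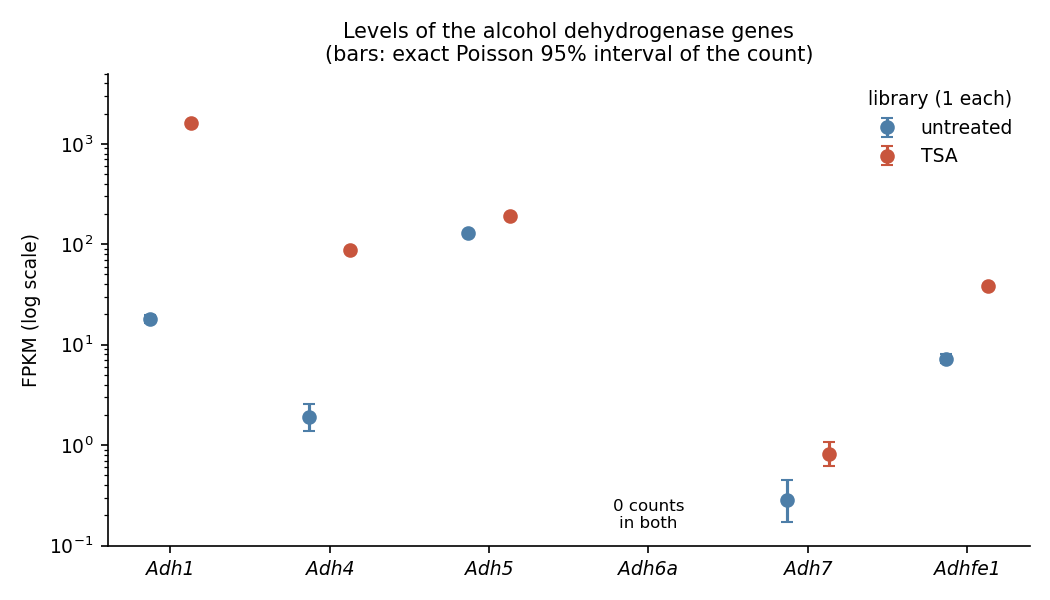
Level of each family member in FPKM (vertical axis, log scale) in the untreated (blue) and the TSA library (red), 1 library each; bars are exact Poisson 95% intervals of the counts. *Adh1* stood furthest above the others with TSA at 1597 FPKM, *Adh5* was high in both libraries at 129 and 193 FPKM, and *Adh6a* had 0 counts.

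*Adh1*, the main ethanol-oxidising gene of the liver, went from 417 counts (18.1 FPKM) in the untreated library to 36415 counts (1597 FPKM) in the TSA library. It ranked 4019 among 15292 detected genes in the first library and 35 among 14958 in the second. The TSA level was 159-fold (145 to 176) above the untreated one, and 88.3-fold (80.2 to 97.5) with total counts. Of all genes tested 181 had a higher ratio. No other member stood as high in the TSA library.

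In the untreated library *Adh4* had 43 counts (1.90 FPKM), and in the TSA library 1974 counts (88.0 FPKM). Its untreated level was therefore low, at rank 9848 of the detected genes, and rested on few reads, with a Poisson interval from 31.1 to 57.9 counts. In the TSA library it ranked 714. The ratio was 83.8-fold (62.0 to 116), or 46.4-fold (34.3 to 64.4) with total counts, and 284 genes had a higher one. With 1 added to the deposited FPKM it was 30.7-fold. The ratio of *Adh4* was above those of 97.8% of genes tested, and that of *Adh1* above 98.6%. Set against *Adh4*, *Adh1* differed by 1.90-fold more (1.35 to 2.62), a comparison within libraries that no scaling can change.

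*Adh5*, for the glutathione-dependent formaldehyde dehydrogenase, went from 3760 counts (129 FPKM) to 5561 counts (193 FPKM) with TSA. It was among the more abundant transcripts of both libraries, at ranks 539 and 324. The ratio was 2.70-fold (2.59 to 2.81) with TMM and 1.5-fold (1.43 to 1.56) with total counts, so it was called under the first scaling and not under the second. Relative to the median of all genes its log2 ratio was 1.54, against 6.50 for *Adh4* and 7.43 for *Adh1*. It had the smallest ratio of the 5 members tested.

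*Adhfe1*, for the iron-dependent transhydrogenase, went from 431 counts (7.28 FPKM) in the untreated library to 2255 counts (38.5 FPKM) in the TSA library. Its ratio was 9.55-fold (8.61 to 10.6), and 5.29-fold (4.77 to 5.88) with total counts. That placed it between *Adh4* and *Adh7*, and just under a 10-fold difference, which 7.81% of all genes tested reached upward. Its untreated count was close to that of *Adh1*, at 431 against 417, while their gene models differ in length, at 3427 and 1334 bases.

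*Adh7*, for the class IV enzyme, was scarce in both libraries, with 19 counts (0.286 FPKM) in the untreated one and 54 counts (0.823 FPKM) in the other. Its ratio of 5.19-fold (3.03 to 9.27), or 2.87-fold (1.68 to 5.13) with total counts, has the widest interval of the family. *Adh6a*, a less characterised zinc member, had 0 counts in both libraries, and the floor of 3 counts set for a count of 0 stands for 0.174 CPM of total counts without treatment and 0.176 CPM with TSA. The exact Poisson 95% interval ends at 3.69 counts. No fold is given for it.

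**Figure D2:**
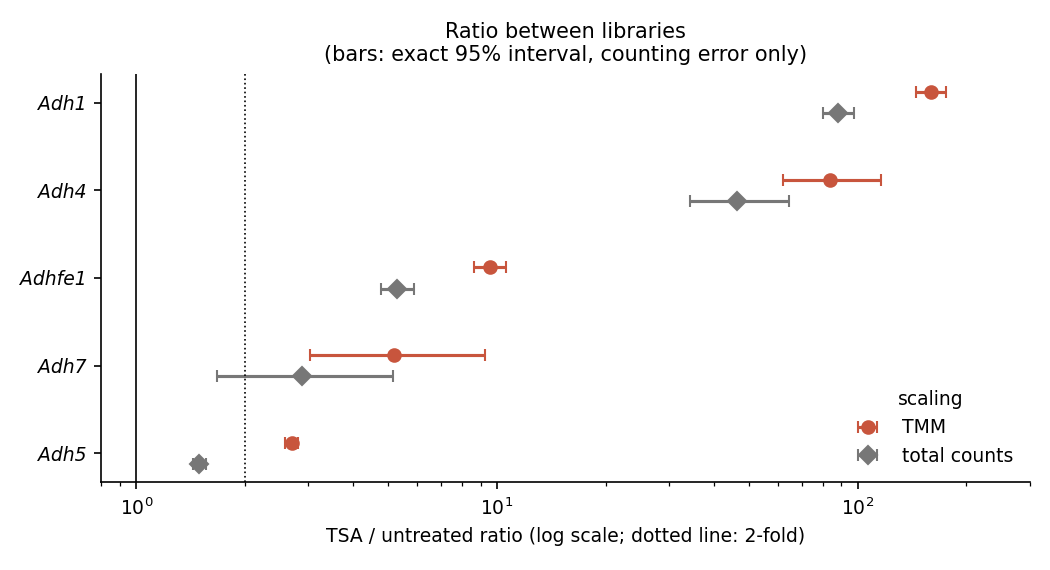
Ratio of the TSA to the untreated library for the 5 members tested (horizontal axis, log scale) with TMM (red circles) and total counts (grey diamonds); bars are exact 95% intervals for counting error. With either scaling the order is *Adh1*, *Adh4*, *Adhfe1*, *Adh7*, *Adh5*, and with total counts *Adh5* lies at 1.5, left of the dotted 2-fold line.

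The makeup of the family was inverted between the libraries. *Adh5* supplied 82.4% of the summed family FPKM without treatment and 10.1% with TSA. *Adh1* supplied 11.6% without treatment and 83.3% with TSA. *Adh4* went from 1.21% to 4.59%, *Adhfe1* from 4.65% to 2.01% and *Adh7* from 0.183% to 0.0429%. A member can thus lose share while its own ratio is above 1, as *Adhfe1* and *Adh7* did. Of the family's counts, not divided by length, *Adh5* took 80.5% (Wilson 95% interval 79.4 to 81.6) without treatment and 12% (11.7 to 12.3) with TSA, and *Adh1* 8.93% (8.14 to 9.78) and 78.7% (78.3 to 79.1).

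**Figure D3:**
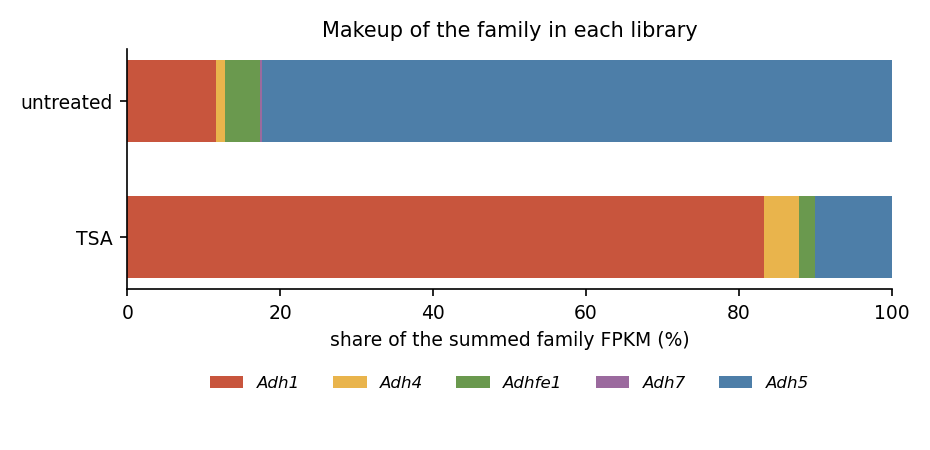
Share of each member in the summed FPKM of the family (horizontal axis, percent) in the untreated and the TSA library. *Adh5* fills 82.4% of the upper bar and *Adh1* 83.3% of the lower one.

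Ratios between members within a library, taken from the same counts, gave the same picture without any scaling. Per length, *Adh5* was 7.13 times as abundant as *Adh1* without treatment, while *Adh1* was 8.28 times as abundant as *Adh5* with TSA. The shift between them was 59.0-fold (53.1 to 65.7). *Adh5* was 68.0 times as abundant as *Adh4* without treatment and 2.19 times with TSA, a shift of 31.0-fold (22.9 to 43.1). *Adh4* stood at 0.261 of the *Adhfe1* level without treatment and at 2.29 times it with TSA, so their order changed as well, by 8.77-fold (6.36 to 12.4). In each of the 10 pairs of detected members the one with the larger ratio was put first, so every estimate is above 1 by construction. The intervals of all 10 pairs also lay above 1. The narrowest margin was *Adhfe1* over *Adh7*, at 1.84-fold (1.02 to 3.19), so by counting error these neighbours in the order are barely separated. *Adh7* over *Adh5* was close to that, at 1.92-fold (1.12 to 3.44).

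Of the genes beside the family none that had enough counts was called higher. In RefSeq order (GRCm38.p6) the chromosome 3 members run *Adh7*, *Adh1*, *Adh6a*, *Adh4*, *Adh5*, with *Adh6b* after *Adh6a*. *Adh6b* had 1 count in each library. Of the 6 protein-coding genes on either side 8 had enough counts, and 0 of these were higher, 3 lower and 5 neither, where 26.0% of all genes tested were higher and 27.4% lower. With total counts 0 were higher and 7 lower, against 16.0% and 48.7% of all genes. *Metap1*, for a methionine aminopeptidase, follows *Adh5* directly and stood 1.91-fold (1.75 to 2.08) below, from 2360 counts to 677. *Eif4e*, for the cap-binding translation factor, was 2.85-fold (2.63 to 3.08) lower and *Tspan5*, for a tetraspanin, 3.54-fold (2.29 to 5.69) lower, while *Rap1gds1* stood 1.81-fold (1.64 to 2.0) below.

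On the *Adh7* side the nearest gene, *4930579F01Rik*, had 0 counts without treatment and 2 with TSA. *Trmt10a*, for a transfer RNA methyltransferase, was 1.90-fold (1.49 to 2.43) below and *Dapp1*, for a signalling adaptor, 2.39-fold (1.44 to 4.17) lower. *Lamtor3*, for a lysosomal scaffold, stood 1.44-fold (1.21 to 1.71) below. *Mttp*, for the hepatocyte protein that loads lipid onto apolipoprotein B, was the sole one of the 8 neighbours tested with a ratio above 1, at 1.37-fold (1.33 to 1.41), and with total counts it stood at 0.758. *Stpg2* and *Pdha2* had 0 counts in both libraries, and *1110002E22Rik* was not analysed here.

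**Figure D4:**
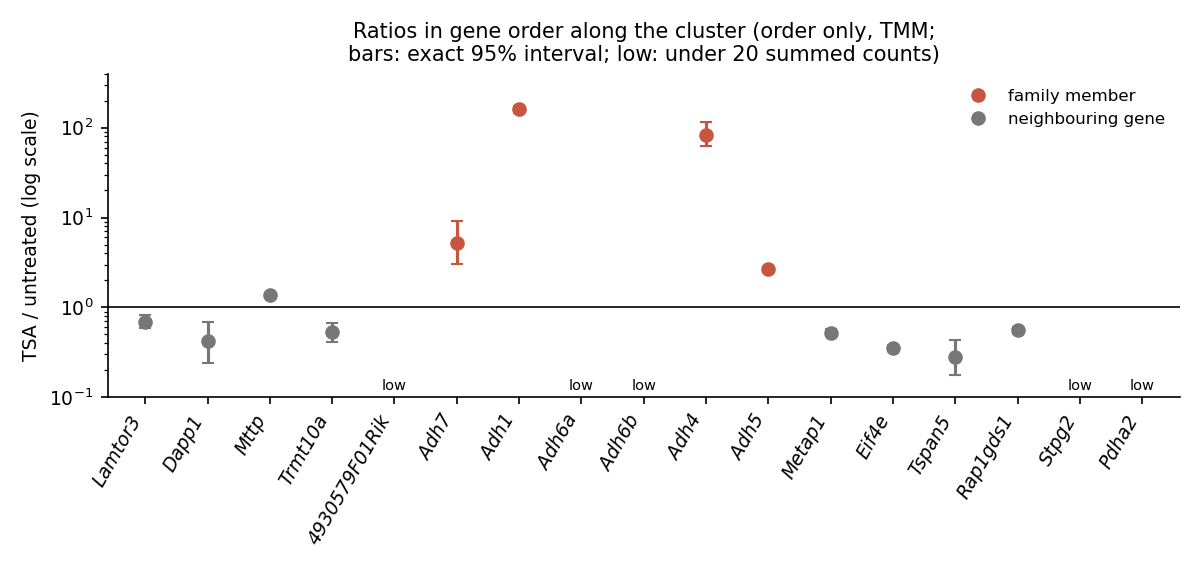
Ratio of the TSA to the untreated library (vertical axis, log scale, TMM) for the members (red) and their neighbours (grey) in chromosomal order, without distances; bars are exact 95% intervals and "low" marks genes with fewer than 20 summed counts. *Adh1* and *Adh4* stand at 159 and 83.8, and the 8 neighbours tested lie between 0.283 and 1.37.

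Genes whose levels were most like those of each member were found by distance in log2(FPKM + 0.1) over the 2 libraries. For *Adh4* these were *Lect2*, *Sqrdl* and *Cyp8b1*, at 0.11, 0.14 and 0.23 from it. *Lect2* codes for a secreted liver protein, *Sqrdl* for the enzyme that oxidises sulfide and *Cyp8b1* for the enzyme that makes cholic acid. *Lect2* had 1.92 FPKM without treatment and 81.9 with TSA, close to the 1.90 and 88.0 of *Adh4*. For *Adh1* they were *Cyp3a11*, *Apoc3* and *Ces1c*, at 0.28, 0.39 and 0.46, and reads of *Cyp3a11* and *Ces1c* may be split among close copies.

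*Adh5* was most like *Mpc2*, for a subunit of the mitochondrial pyruvate carrier, at 117 and 198 FPKM, then *Ndufb9* and *Dap*. *Adhfe1* was most like *Pid1*, at 7.44 and 38.7 FPKM, then *Cpq* and *Nr1i2*, the gene of the drug-sensing receptor PXR. *Adh7* was nearest to *Hdc*, for histidine decarboxylase, at 0.284 and 0.817 FPKM, then *Pla2r1* and *Crygn*, all scarce. With 2 libraries such likeness rests on 2 values a gene.

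Around the family 105 genes of its pathways were read from 7 lists, of which 100 had enough counts. Scaled by TMM, 61 of these were higher, 14 lower and 25 neither, and total counts gave 46 higher and 26 lower. Over all genes tested the shares were 26.0% higher and 27.4% lower with TMM, and 16.0% and 48.7% with total counts. The genes named in each list are those with the most counts and the largest differences. Most genes that make up a count of 5 or fewer are named too, after their values were seen. *Acss2*, *Acss3*, *Esd* and *D2hgdh* were also named outside the rule, with their values known.

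Other enzymes of ethanol oxidation and acetaldehyde clearance were higher in 9 of 11 cases, with a median log2 ratio of 3.68. With total counts 8 were higher and 2 lower. *Cyp2e1*, for the P450 that oxidises ethanol, went from 586 counts to 140257 and was 437-fold (403 to 475) higher. *Cat*, for catalase, was 13.5-fold (13.2 to 13.8) higher. Of the aldehyde dehydrogenase genes *Aldh1a1* was 134-fold (119 to 152) and *Aldh2* 12.7-fold (12.3 to 13) higher. The 2 lower genes were *Aldh1b1*, for another aldehyde dehydrogenase, at 3.42-fold (3.29 to 3.55), and *Acss1*, for an acetyl-CoA synthetase, at 69.1-fold (47.7 to 104). Its relatives *Acss2* and *Acss3* were higher, at 12.8-fold (11.6 to 14.2) and 101-fold (66.4 to 162). The count of *Acss3* went from 22 to 1218.

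Of 18 genes of retinol handling 13 were higher, 3 lower and 2 neither, with a median of 2.73. Total counts gave 11 higher and 4 lower. *Rdh16*, for a liver retinol dehydrogenase, went from 9 counts to 1719 and was 349-fold (183 to 764) higher. *Cyp26a1*, for the P450 that breaks down retinoic acid, went from 3 to 692 and was 421-fold (143 to 2046) higher. Both rest on few untreated counts, and with 1 added to the deposited FPKM the ratio was 32.8 for *Rdh16* and 20.9 for *Cyp26a1*. *Rbp4*, for the plasma carrier of retinol, was 10.5-fold (10.2 to 10.7) higher. Among the lower genes were *Rdh13*, at 2.15-fold (1.81 to 2.58), and *Dhrs9*. *Dhrs9* went from 45 counts to 0 and was lower. With the TSA count set to 3 it stood 8.22-fold below, and the interval starts at 6.41-fold. *Rdh10* and *Rdh11* were neither.

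Partners of ADH5 in formaldehyde, glutathione and nitrosothiol chemistry were split, 4 of 15 higher, 3 lower and 8 neither, with a median of 0.23. The share higher is near the 26.0% of all genes tested. With total counts 3 were higher and 6 lower. *Esd*, for the esterase that takes the product of ADH5, had 3061 and 2892 counts and a ratio of 1.72 (1.64 to 1.81), not called. *Aldh2*, at 12.7-fold (12.3 to 13), *Aldh1l1*, for the folate-linked formyl dehydrogenase, at 145-fold (130 to 162), *Gclc* at 4.53-fold (4.30 to 4.78) and *Nos3* at 2.08-fold (1.56 to 2.77) were higher. *Mthfd1l*, for the mitochondrial enzyme that makes formate, was 42.3-fold (31.2 to 58.8) lower and *Gsr*, for glutathione reductase, 2.09-fold (1.95 to 2.25) lower. *Nos2* went from 27 counts to 1 and was 14.8-fold (2.44 to 606) lower.

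Beyond the family, other medium-chain dehydrogenases and reductases, the protein superfamily of the zinc enzymes, were split. Of 9 tested 4 were higher, 2 lower and 3 neither, with a median of 0.87, and 2 were higher and 4 lower with total counts. Over all genes tested 26.0% were higher and 27.4% lower with TMM, and 16.0% and 48.7% with total counts. The number lower with TMM and both numbers with total counts are near these shares. *Sord*, for sorbitol dehydrogenase, was 7.18-fold (6.97 to 7.40) higher and *Zadh2* 4.17-fold (3.85 to 4.51). *Cryz* and *Ptgr2* were higher with TMM, at 2.60-fold and 2.04-fold, and not with total counts. The lower genes were *Cryzl1* at 2.97-fold (2.41 to 3.67) and *Ptgr1* at 2.11-fold (1.57 to 2.89), and *Vat1*, *Mecr* and *Rtn4ip1* were neither.

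Carbonyl and aldehyde reductases and related enzymes were higher in 13 of 16 cases, with a median of 2.87, and in 11 with total counts. *Akr1c6*, for a steroid-reducing enzyme of the liver, was 262-fold (219 to 317) higher and *Akr1c14* 197-fold (151 to 262). *Akr1a1*, for the general aldehyde reductase, had 6170 and 5288 counts and a ratio of 1.56 (1.51 to 1.62), not called, and *Akr1b10* was not called either. *Akr1b3*, for aldose reductase, was the sole one lower, by 3.0-fold (2.74 to 3.29). Reads of the *Akr1c* genes may be split between copies.

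Among 13 enzymes of hydroxyacids around *Adhfe1*, 7 were higher, 2 lower and 4 neither, with a median of 1.03. Total counts gave 5 higher and 4 lower. *Hao1*, for the peroxisomal glycolate oxidase, was 262-fold (178 to 401) higher. *Phgdh*, for the first enzyme of serine synthesis, was 182-fold (134 to 254) lower, from 13651 counts to 41, and *Idh3a* 2.34-fold (2.17 to 2.53) lower. *D2hgdh*, for the enzyme that clears the hydroxyglutarate that ADHFE1 makes, was 2.45-fold (2.04 to 2.94) higher with TMM and 1.36-fold with total counts. *Abat*, for the transaminase of gamma-aminobutyrate, had 8415 and 9444 counts, 2.05-fold (1.99 to 2.11) with TMM and 1.13-fold with total counts. *Aldh5a1*, for the enzyme that takes the aldehyde made by ADHFE1, stood at 1.26 (1.18 to 1.35), not called.

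Transcription factors known at alcohol dehydrogenase promoters were higher in 13 of 20 cases, lower in 1 and neither in 6, with a median of 1.43. With total counts 8 were higher and 5 lower. *Cebpb*, for a C/EBP factor, was 8.13-fold (7.38 to 8.97) higher and *Cebpd* 35.3-fold (20.7 to 65.5), from 14 counts to 271. *Dbp*, for the clock-driven factor of the same leucine zipper group, was 5.94-fold (5.16 to 6.86) higher. *Cebpb* and *Dbp* are named as known regulators of *Adh1*, after their values were seen. *Nfix* was 24.9-fold (20.7 to 30.1) higher and *Ppara* 10.5-fold (9.87 to 11.2). *Hnf4a*, with 9078 and 12221 counts, was 2.46-fold (2.39 to 2.52) higher with TMM and 1.36-fold with total counts, and *Usf1* was the one lower, by 2.19-fold (1.88 to 2.57).

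**Figure D5:**
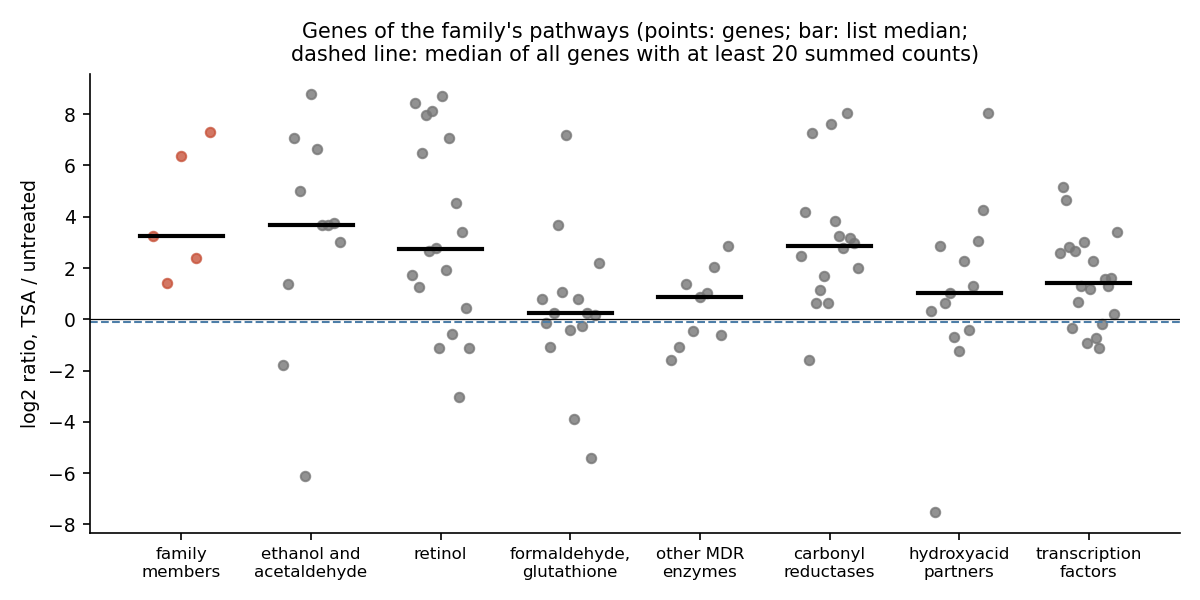
Log2 ratio of the TSA to the untreated library (vertical axis, TMM) for each tested gene of the family and of the 7 pathway lists; thick bars are list medians and the dashed line is the median of all genes tested, -0.11. The family median is 3.26, near the ethanol list at 3.68, while the formaldehyde and glutathione list lies at 0.23.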

How the data were processed

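PolyA RNA of liver was sequenced in 2 libraries, 1 per group. The submitters' processing notes list DESeq, Bowtie2, HISAT2 and Trimmomatic with neither role nor version, and build, annotation and counting tool were not given in the sources used. The authors deposited whole-number counts per gene symbol. The deposited FPKM equal the counts over the product of a length per gene and the library total: the implied length was equal within 0.1 base in both libraries for 14271 of 14271 genes with counts in both.

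Libraries were scaled by TMM in edgeR 4.0.16 (R 4.3.3), with factors of 1.34 (untreated) and 0.744 (TSA). Genes needed 20 summed counts. Ratio intervals are exact conditional binomial (Clopper-Pearson) and ratios between members exact conditional odds ratios, at 95%. They reflect counting error alone, as PCR copies without identifiers are not separate molecules. A count of 0 was set to 3 counts. Python 3.11.15, scipy 1.17.1 and Biopython 1.88 were used.

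By rule the genes named were all members, in each list, among genes with 50 counts, the 2 most counted and the 2 that differed most, the neighbours, and 3 nearest genes per member, without pseudogenes, predicted models or unnamed loci. Further list genes were named by hand with their values known. Members and lists were chosen with earlier results of these data known, and motifs after the promoters were seen. The values of 1 listed gene are not reported here. Promoter windows are RefSeq's. A comparison of all genes by promoter CG content is void, because 79.7% of tested genes had a window. Counts simulated for TSA against untreated (13027 genes, with counting error alone) gave calls for 100 of 100 genes set to differ 3-fold and for 32 of 12724 set to be equal. The simulation set few genes to differ and took the scaling as known. It therefore cannot show how often calls in these libraries are wrong through scaling or differences between animals.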

Additional observations from a re-analysis of the deposited data

How the results depend on the processing

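Alternatives were DESeq2 size factors (DESeq2 1.42.0), upper quartile and total-count scaling, the deposited FPKM with 0.1 or 1 added, a prior count of 2, thinning of the untreated library to the total of the other, thresholds of 1.5-fold and 4-fold, and minimums of 1 and 100 counts. *Adh1*, *Adh4* and *Adhfe1* stayed called higher under each scaling, both FPKM settings, the prior count and the thinning. *Adh5* was no longer called with total counts (1.5) or with FPKM (1.5 with 0.1 added, 1.49 with 1 added), and *Adh7* not with 1 added (1.42), where 3 members were higher. Lower pathway genes numbered 14, but 26 with total counts, 26 and 23 with FPKM plus 0.1 and plus 1, and 5 at 4-fold. Of 154 single-list counts 27 moved by over 1.5 times. Followed singly were 29 genes outside the family, the list genes named by the fixed rule and the neighbours tested. None of them changed sign once called, and of 203 values 8 lost and 12 gained a call. Other genes named above, such as those nearest to each member, were not followed singly through these settings. As shares of counts rather than of FPKM, *Adh1*, *Adh5*, *Adhfe1* and *Adh7* took 8.93%, 80.5%, 9.23% and 0.407% without treatment, and with TSA 78.7%, 12%, 4.87% and 0.117%, with *Adh4* at 4.27%. No paired analysis was possible because each group holds 1 library. Depth limits *Adh7* and *Adh6a*, and the untreated level of *Adh4* rests on 43 counts.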
